A study of Mus musculus with 136 samples.

Results

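Six2, Six3, Six4, Six5 and Six6 encode homeobox transcription factors related to Drosophila sine oculis, and these 5 mouse genes were examined among 21887 protein-coding genes of the annotation. They were chosen by name. Each was given a window made of its annotated gene body plus 2500 bp on both sides, and every peak of 10 deposited lists that overlapped the window by at least 1 bp was taken. The peaks came from chromatin immunoprecipitation followed by sequencing (ChIP-seq) in mouse embryonic stem cells (ESCs) of the line E14JU, a 129/Ola line kept untreated in serum with leukaemia inhibitory factor. The study asks how the chromatin of ESCs fares when parental histones segregate unevenly at replication. WT cells were clone 410. MCM2-2A cells were clones 439 and 442, each a single clone of the same line, carrying a mutated histone-binding domain in MCM2, a replicative helicase subunit that hands parental histones to the lagging strand. Of 136 samples, 26 stood behind the lists. SUZ12 was mapped by ChIP on crosslinked and sonicated chromatin in each of the 3 clones (3 replicates each). It is an essential component of PRC2, the Polycomb complex that methylates H3K27. H3K27me3, H3K4me3, H3K27ac and H3K9me3 were profiled in WT by native ChIP on MNase-digested chromatin, in an original experiment (2 replicates per mark) and, without H3K27ac, in a rescue experiment (3 replicates per mark). A Drosophila spike-in was added in both kinds of ChIP.

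Proteins of this family bind DNA through a homeodomain and act together with EYA coactivators and DACH corepressors in organs such as the eye, the kidney and skeletal muscle. Most of their genes are silent in ESCs, where PRC2 places H3K27me3 on developmental regulators that often also carry H3K4me3, a pairing called bivalent chromatin. H3K27ac marks active promoters and enhancers, and H3K9me3 marks constitutive heterochromatin. Each list is a single set of peaks made from pooled replicates, so the spread between replicates was unknown, no test was run, and every value below is 1 value per list. In such bulk samples, a peak in part of the cells and a weaker peak in all of them cannot be told apart. Peak strength is the fold enrichment over local background for SUZ12, H3K4me3 and H3K27ac. H3K27me3 and H3K9me3 regions were ranked by a deposited score of unknown scale. Rank 1 is the strongest peak of its list. Read depth was unknown, and a gene missing from a list may still carry signal, also because the lists used here may not hold every peak.

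The labelled cell type was checked on its markers. All 8 pluripotent cell markers examined had H3K4me3 (78.1% of all genes, original list) and H3K27ac (66.1%) in the window. The median share of their windows under H3K27ac was 82.0%. WT SUZ12 lay at 2 of the 8, Esrrb (61.7-fold) and Klf4 (11.0-fold), where 22.5% of all genes had it. The other 6 markers had no SUZ12 in any clone. Of 10 markers of other cell types, 9 had WT SUZ12, led by the endoderm regulator Foxa2 (113-fold), the trophectoderm regulator Cdx2 (101.5-fold) and the neural regulator Sox1 (86.1-fold), and Elf5 had none. In clone 439 Sox1 had no listed peak either, which left 8 of 10. All 10 also had H3K4me3 and 7 had H3K27ac, so the presence of these marks hardly set the 2 lists apart. The median share of these 10 windows under H3K27ac was 2.56%. The SUZ12 lists held 6298 peaks in WT, 7571 in clone 439 and 7840 in clone 442, with median fold enrichments of 13.4, 12.4 and 11.1.

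The DNA before each start site differed between the genes. Start sites and sequences came from the RefSeq table (GRCm38.p6), which held all 5 genes, and the 250 bases before the most upstream listed start site were searched. The 4 promoters shown differ in SUZ12. Among the 5 genes, Six2 had the strongest WT peak, Six3 had the widest, Six4 had no peak in WT, and Six6 had its start site under a peak in WT and clone 439 only. Each runs 5′ to 3′ on the gene's own strand, with CpG dinucleotides (CG, the same on both strands) in capitals. The positions are chr17:85688255-85688504 on the minus strand for Six2, chr17:85620584-85620833 on the plus strand for Six3, chr12:73113426-73113675 on the minus strand for Six4 and chr12:72939632-72939881 on the plus strand for Six6.
Six2: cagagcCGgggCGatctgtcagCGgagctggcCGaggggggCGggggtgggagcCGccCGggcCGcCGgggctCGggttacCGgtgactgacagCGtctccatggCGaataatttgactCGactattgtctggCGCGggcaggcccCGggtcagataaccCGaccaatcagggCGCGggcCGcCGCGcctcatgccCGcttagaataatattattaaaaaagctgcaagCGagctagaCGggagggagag
Six3: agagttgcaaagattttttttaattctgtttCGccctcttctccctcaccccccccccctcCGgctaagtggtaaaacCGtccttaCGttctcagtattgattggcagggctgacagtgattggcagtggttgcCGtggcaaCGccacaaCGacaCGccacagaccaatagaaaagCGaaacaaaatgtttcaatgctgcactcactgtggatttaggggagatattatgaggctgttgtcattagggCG
Six4: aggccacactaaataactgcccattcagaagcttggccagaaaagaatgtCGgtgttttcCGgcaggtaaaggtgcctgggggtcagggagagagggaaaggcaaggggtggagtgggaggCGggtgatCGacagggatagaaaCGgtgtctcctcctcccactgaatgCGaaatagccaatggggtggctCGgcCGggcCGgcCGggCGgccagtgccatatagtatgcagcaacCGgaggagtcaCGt
Six6: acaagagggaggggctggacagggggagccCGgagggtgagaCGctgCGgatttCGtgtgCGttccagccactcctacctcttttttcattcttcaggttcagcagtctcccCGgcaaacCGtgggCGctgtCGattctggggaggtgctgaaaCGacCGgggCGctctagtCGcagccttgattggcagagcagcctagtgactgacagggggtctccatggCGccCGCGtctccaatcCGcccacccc

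Six2 had 26 CpG in this stretch, more than 87.6% of 21255 promoters searched in the same way (some genes have several). Six6 had 17, Six4 and Six5 had 13 each, and Six3 had 10, which equals the median over all promoters. Promoters under a WT SUZ12 peak had a median of 17 CpG (quartiles 10 and 25, n = 3364), and those outside had a median of 8 (quartiles 2 and 18, n = 17891). Six3 thus combined the widest WT SUZ12 cover of the 5 genes with the fewest CpG before its listed start site. Six2 lay above the upper quartile of SUZ12 promoters. The stretches searched at Six3 and Six4 lay inside their annotated gene bodies, so these counts hold for the listed start sites only. GC content ran from 48.8% at Six3 to 64.8% at Six2. The letters CCAAT, searched on both strands, occurred 3 times at Six3, 2 times at Six6, 1 time each at Six2 and Six4 and not at Six5, and 35.4% of promoters held them. GGGCGG was found at every member but Six3 (42.6% of promoters), and TATAAA at none of the 5 (11.6% of promoters).

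SUZ12 lay in the window of 4 of these 5 genes in WT, where 22.5% of all genes had it. It lay at 5 of 5 in clone 439 (26.2% of all genes) and in clone 442 (27.7%). The 4 genes with a WT peak, Six2, Six3, Six5 and Six6, also had a peak in both mutant clones, a pattern shared by 21.3% of all genes. The remaining gene, Six4, had a peak in both MCM2-2A lists and none in WT, as did 3.08% of all genes. At the start site itself, SUZ12 covered 4 of 5 members in WT (16.4% of the 17492 genes with a start site in the table), 4 in clone 439 (19.1%) and 3 in clone 442 (20.4%).

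**Figure D1:**
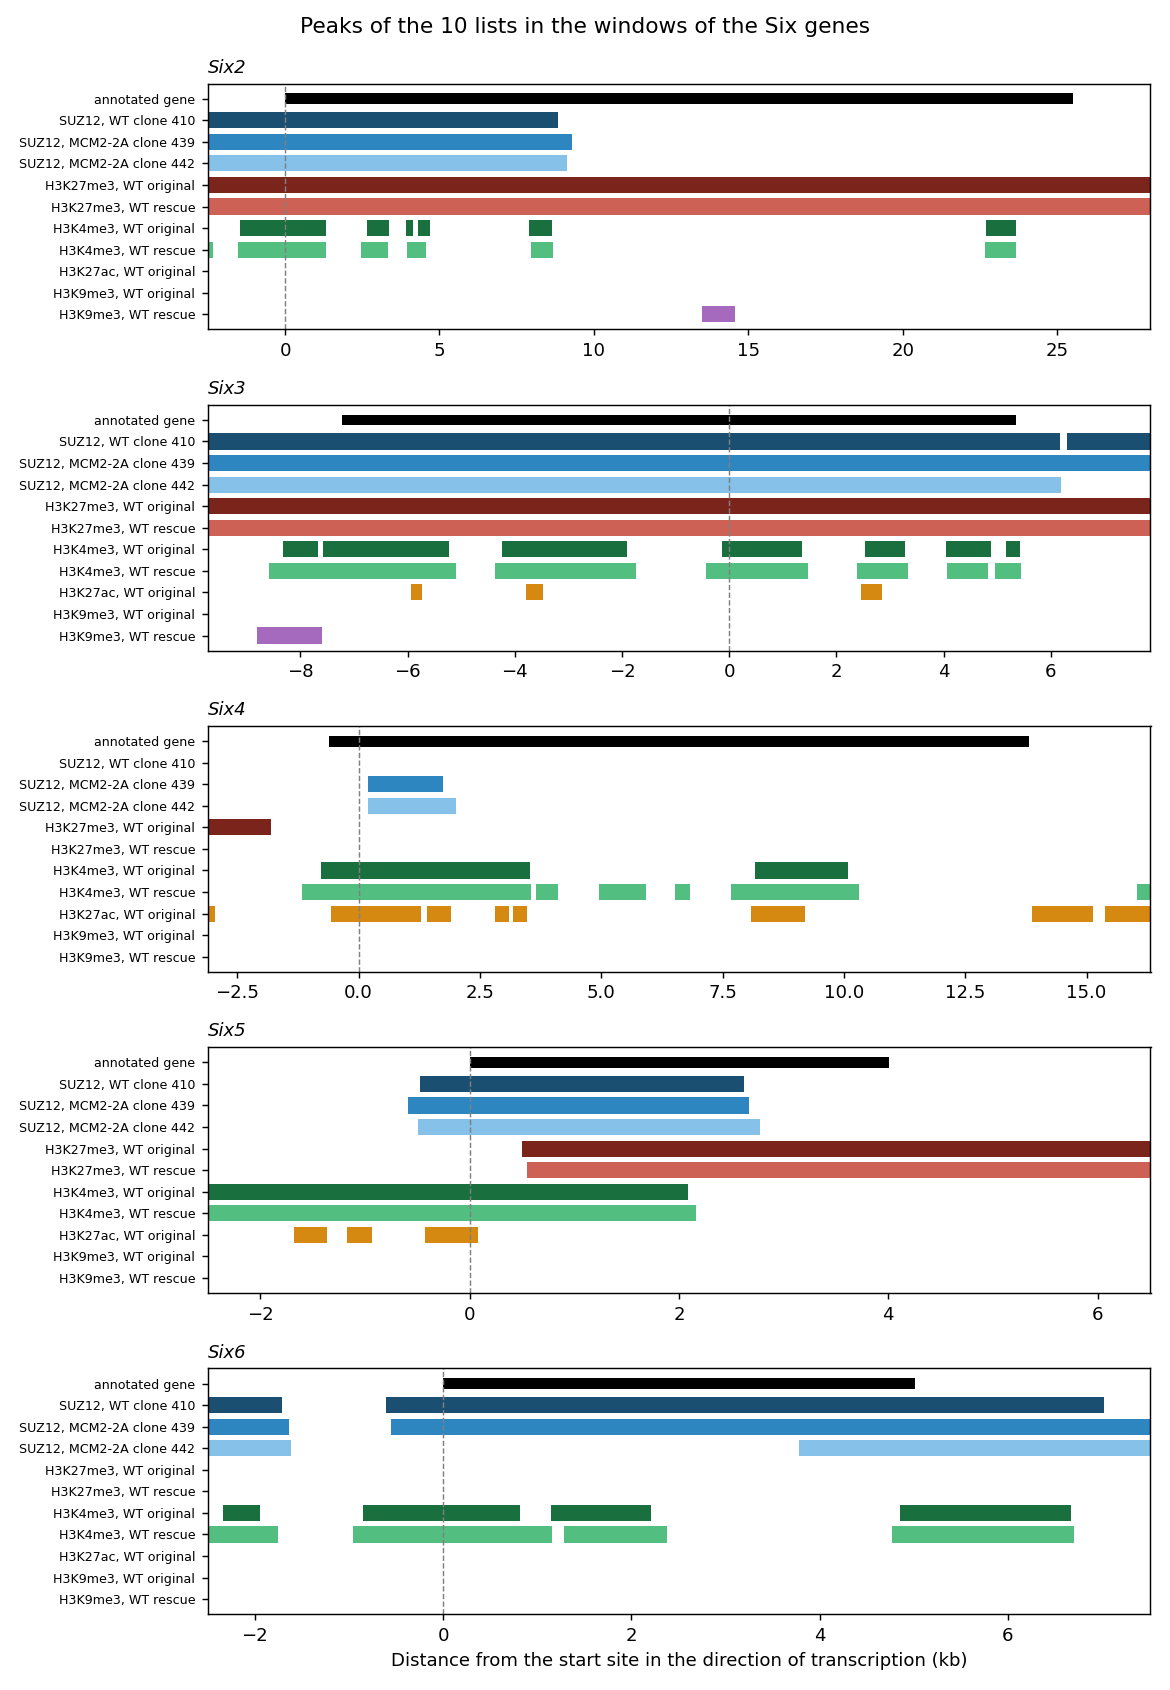
Peaks of each list across the window of each gene, with distance from the start site in kb on the horizontal axis, transcription running to the right, and 1 track per list below the annotated gene in black. SUZ12 and H3K27me3 lie over Six2, Six3 and Six5, Six4 carries H3K4me3 and H3K27ac with short SUZ12 peaks in the mutant clones alone, and Six6 carries SUZ12 and H3K4me3.

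Six2, which keeps kidney nephron progenitors in an undifferentiated state, lies on chromosome 17 (85662736 to 85688254, minus strand). Its WT SUZ12 peak had a fold enrichment of 119 and ranked 21 of 6298. The peak spanned 14.1 kb, from 5.3 kb before the start site to 8.8 kb into the gene. Clone 439 had a fold enrichment of 79.9 here (rank 204) and clone 442 had 55.3 (rank 333), with widths of 15.9 and 15.5 kb. The WT list therefore placed Six2 higher than either mutant list did, both in fold enrichment and in rank, while all bases of the WT peak were covered by the peak of each mutant clone. The share of the window under SUZ12 hardly moved, at 37.2% in WT, 38.7% in clone 439 and 38.1% in clone 442.

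Six3, a regulator of forebrain and eye formation, lies 36.5 kb from Six2 on the same chromosome (85613608 to 85626191, plus strand). Its annotated body begins upstream of the listed start site. A WT peak of 21.3 kb covered its start site with a fold enrichment of 99.7 (rank 91). Clone 439 had 92.2 (rank 90, 23.0 kb), and clone 442 had 76.9 (rank 65, 22.5 kb). Fold enrichment was lowest in clone 442 although the rank was best there, so the 2 measures ordered the clones differently. By −log10 q its ranks were 69 in WT, 132 in clone 439 and 112 in clone 442. SUZ12 covered 99.3% of the Six3 window in WT, 100% in clone 439 and 90.5% in clone 442, each more than at over 99% of genes. The WT list also held a small second peak (6.41-fold, rank 5112, 2.0 kb) 119 bp further downstream. Clone 439 joined both into 1 peak, and the clone 442 list ended near the end of the first.

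Six5, the neighbour of the myotonic dystrophy gene Dmpk, lies on chromosome 7 (19094544 to 19098549, plus strand). Its SUZ12 peak was of middling strength and had a fold enrichment of 18.1 in WT (rank 2506), 26.97 in clone 439 (rank 1962) and 33.8 in clone 442 (rank 1199). Both mutant lists placed it higher than the WT list, the reverse of the order at Six2. The peak kept its width, at 3.1, 3.3 and 3.3 kb, and its place over the start site in each clone.

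Six6, a regulator of retina and pituitary development, lies on chromosome 12 (72939882 to 72944899, plus strand) and had 2 SUZ12 peaks in every clone. The stronger one had a fold enrichment of 27.1 in WT (rank 1720), 38.2 in clone 439 (rank 1273) and 29.4 in clone 442 (rank 1483). The weaker one, before the start site, had 9.33, 12.4 and 9.68. In WT the stronger peak ran for 7.6 kb from 0.6 kb before the start site to 7.0 kb after it, and in clone 439 it ran for 8.4 kb. In clone 442 the stronger listed peak spanned 4.0 kb and began 3.8 kb after the start site, which left 5392 bp without a listed peak between the 2 peaks. Its summit lay 5583 bp after the start site, against 1857 bp in WT and 1828 bp in clone 439, so it has a different summit. Most of the clone 442 peak lay beyond the end of the gene, which is 5.0 kb long. SUZ12 covered 24.7% of the gene body in clone 442, against 100% in WT and clone 439. SUZ12 thus covered 84.0% of the window in WT, 89.1% in clone 439 and 46.2% in clone 442. The mutant clones differed from each other here by more than clone 439 differed from WT. A peak over the start site may be missing from the clone 442 list used here, so this is not read as a loss.

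Six4, a factor active in muscle precursors, lies on chromosome 12 (73099609 to 73114031, minus strand). The WT list held no SUZ12 peak in its window, the nearest being 42.2 kb outside. Clone 439 held a peak of 1.5 kb with a fold enrichment of 7.03 (rank 5626) and clone 442 one of 1.8 kb with 7.15 (rank 5538). Both lay immediately downstream of the more downstream of its 2 listed start sites, 15 and 7 bp from it, and the clone 442 peak covered all bases of the clone 439 peak. They were weak, with 25.7% and 29.4% of peaks of their own lists being weaker, and neither was kept among the stronger 50% of its list. In the WT list 23.1% of peaks were weaker than 7.03-fold.

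**Figure D2:**
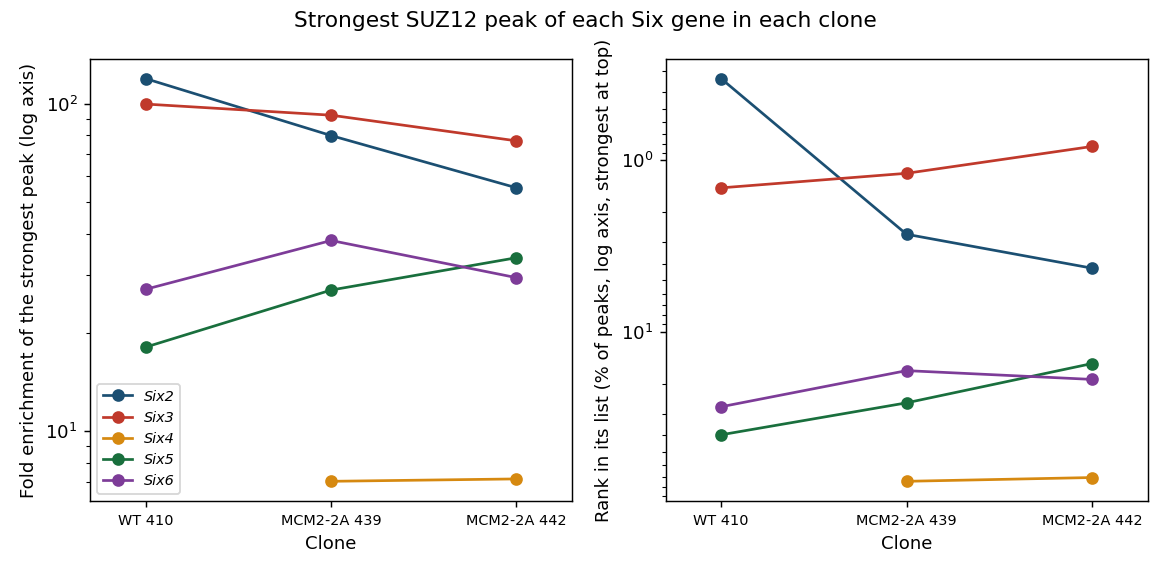
Fold enrichment of the strongest SUZ12 peak of each gene (left, log axis) and its rank as a percent of the peaks of its list (right, log axis, strongest at the top) in the 3 clones, with 1 value per clone and lines joining the values of a gene. Six2 goes from 119 in WT to 79.9 and 55.3 in the mutant clones, Six5 from 18.1 to 26.97 and 33.8, and Six4 has points in the mutant clones alone.

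The 5 genes thus did not shift in 1 direction. To place them among other sites, the ratio of mutant to WT fold enrichment was taken for every WT peak that overlapped a mutant peak. Its median over 5826 such peaks was 1.13 in clone 439 (quartiles 0.943 and 1.37), and over 5880 peaks it was 1.04 in clone 442 (quartiles 0.826 and 1.30). Six2 had ratios of 0.670 and 0.464, with 2.88% and 0.765% of all peaks lower. Among the 100 strongest WT peaks the medians were 0.855 in clone 439 and 0.650 in clone 442, and the lower quartiles were 0.737 and 0.530, so Six2 was below the lower quartile of similarly strong peaks in both clones. Six3, with 0.925 and 0.772, lay near their upper quartiles of 0.930 and 0.773.

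Six5 had ratios of 1.49 in clone 439 and 1.87 in clone 442. Among WT peaks of similar strength (13.4 to 29.3-fold) the medians were 1.12 and 1.02, and 87.7% and 98.9% of those peaks had a lower ratio. The stronger Six6 peak, of the same strength class, had 1.41 and 1.08, with 81.9% and 59.4% lower. The clone 442 peak behind the latter ratio covered 42.5% of the bases of the WT peak, and its summit lay 5583 bp after the start site, against 1857 bp in WT, so that ratio sets different summits side by side. The WT value enters both the grouping and the ratio, and fold enrichments of separate lists do not measure the amount of SUZ12 bound. With 1 WT and 2 mutant lists, an exact permutation test could not give p below 0.333, so these values describe 3 lists and are no test of genotype.

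**Figure D3:**
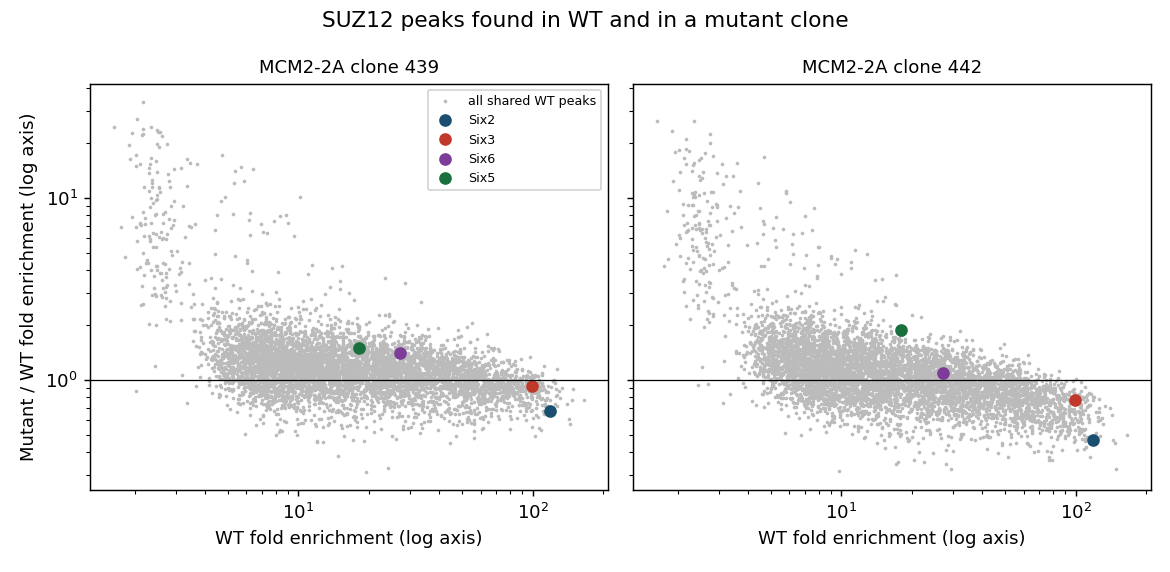
Ratio of mutant to WT SUZ12 fold enrichment against WT fold enrichment (both log axes) for WT peaks that overlap a peak of clone 439 (left) or clone 442 (right), in grey, with the strongest WT peak of each member in colour. Six2 lies low among the strong peaks (0.670 and 0.464), and Six5 lies high among peaks of middling strength (1.49 and 1.87).

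H3K27me3, the mark PRC2 places, lay in the window of 4 of 5 members in the original list (40.1% of all genes) and 3 of 5 in the rescue list (59.0%). Six2 and Six3 shared a single region in each list. It spanned 134 kb in the original experiment (85588580 to 85722740, rank 115 of 41869) and 314 kb in the rescue experiment (85587140 to 85900720, rank 134 of 63473), and it covered both windows completely. The original region held 4 WT SUZ12 peaks, which covered 31.3% of it and were led by those at Six2 and Six3. The start sites of Six2 and Six3 were covered by H3K27me3 and those of the other 3 genes were not, against 20.3% of genes with a start site under the original list.

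At Six5, H3K27me3 began 506 bp after the start site in the original list and 546 bp after it in the rescue list. The regions spanned 23.1 kb (rank 508) and 10.6 kb (rank 4026), and covered 66.6% and 66.2% of the window. Only 68.5% of the Six5 window's WT SUZ12 bases lay under the original H3K27me3 region, while all of those at Six2 and Six3 did. Six4 had a weak region of 2.0 kb in the original list (rank 31515), 1.8 kb upstream of its start site, and none in the rescue list.

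Six6 had no H3K27me3 region in its window in either list used here, although it had SUZ12 in all 3 clones. This combination occurred at 1.00% of all genes. The stretch without a listed region around Six6 measured 141 kb in the original and 145 kb in the rescue list. Of 165 genes whose windows were covered by WT SUZ12 as far as that of Six6 or further, 61 had no H3K27me3 region in the original list, 47 had none in the rescue list and 18 had none in either. Six6 was therefore not alone, and the lists do not show that its chromatin was unmethylated.

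H3K4me3 lay at 5 of 5 members in the original (78.1% of all genes) and rescue lists (79.4%), and covered the start site of each (65.5% of genes in the original list). Six4 had the strongest peak, with a fold enrichment of 80.5 in the original and 71.9 in the rescue list, and the original peak spanned 4.3 kb. Six6 followed with 66.0 and 61.7. Its strongest original peak lay 4.8 to 6.7 kb after the start site, nearly all beyond the end of the gene, and the one on the start site had 47.2. In the rescue list the start-site peak was the strongest, and the downstream one had 58.5. Six5 had a single peak of 6.0 kb (43.6-fold) in the original list, which began 3.9 kb before its start site, inside Dmpk. The rescue value was 43.4. In both lists the summit of the Six5 peak also lay inside Dmpk, so these values do not describe the Six5 start site alone. Six3 had 39.8 and 37.9, in a peak that lay before the start site in both lists, and its start-site peak in the original list had 15.2. Six2 was lowest with 28.9 and 30.6, at its start site. The order of the 5 genes by the strongest peak in the window, wherever it lay, was the same in both experiments. Six5 and Six3 were the closest neighbours in this order.

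Both H3K4me3 and H3K27me3 of the original lists lay in the window of 4 of 5 members, Six6 being the exception, where 34.0% of all genes had both. At Six2 and Six3 every base under H3K4me3 lay within H3K27me3, a total of 5.84 and 8.67 kb. At Six5 the marks shared 1.58 kb, and at Six4 they shared no base. Six4 thus met the window rule without the marks touching. With the gene body alone as the window, or with the rescue lists, it no longer met it.

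H3K27ac lay at 3 of 5 members, Six3, Six4 and Six5 (66.1% of all genes), and covered the start sites of Six4 and Six5 (16.5% of genes). Six4 had 8 peaks over 32.9% of its window, the strongest (8.72-fold, 1.9 kb) on its start site. At Six5 the strongest peak was 7.25-fold and ended 80 bp after the start site, short of the start of the H3K27me3 region. Six3 had 3 peaks of 3.30 to 3.69-fold over 5.19% of its window, none on its start site. Six2 and Six6 had none, and the nearest lay 36.6 and 6.3 kb outside their windows. Of the SUZ12 bases of clone 439 at Six4, 92.3% lay under WT H3K27ac and 100% under WT H3K4me3. H3K9me3 lay at 0 of 5 members in the original list (33.8% of all genes) and 2 of 5 in the rescue list (58.7%), which were Six2 and Six3, with 1 region each of 1.1 and 1.2 kb at ranks 64309 and 67354 of 104026.

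**Figure D4:**
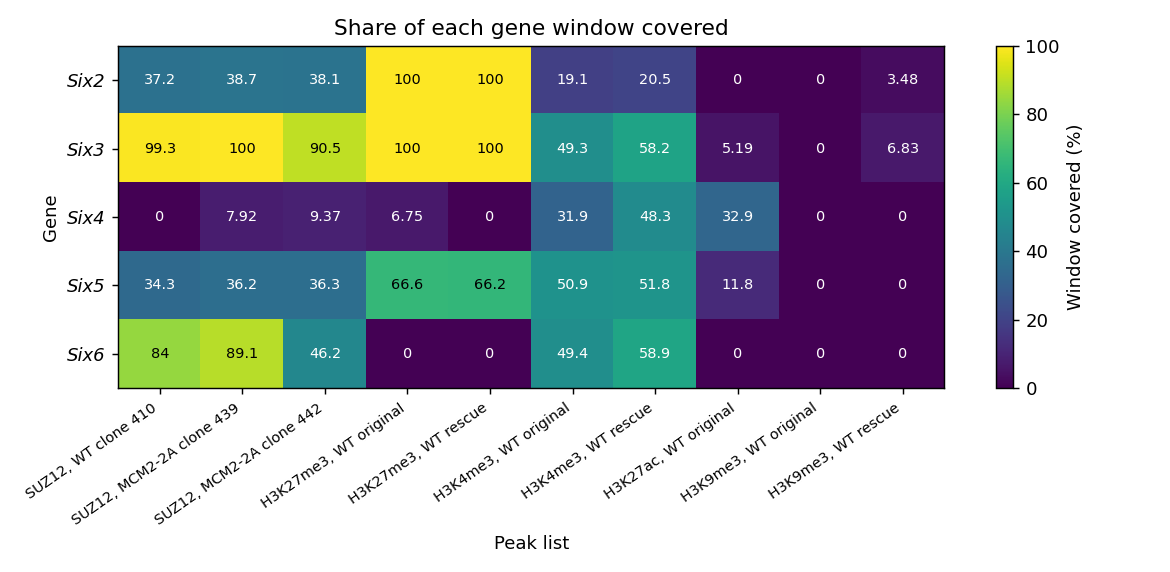
Share of each gene window (gene body plus 2500 bp on both sides) covered by each of the 10 lists, in percent, with genes in rows, lists in columns and 1 value per cell. Six2 and Six3 are at 100% in both H3K27me3 lists and Six6 at 0%, and Six4 has the highest H3K27ac share, 32.9%.

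Genes with the most similar cover were sought by the Euclidean distance between the 10 percents of window covered. For Six3 they were Foxd4, Hoxb2 and Hoxa9 (distances 11.4, 11.9 and 12.2, against a median of 221 over all genes), all covered by SUZ12 and H3K27me3 over nearly the whole window. For Six2 they were Pcdhb2, Cxcl14 and Duoxa1 (6.51, 7.70 and 10.4, median 151). Six5 was closest to Mapk15, 2700081O15Rik and Vgf (14.2, 14.3 and 16.0, median 119). Six4 was closest to P4htm, Mynn and Zmat3 (12.6, 13.3 and 13.9, median 67.1), which had H3K27ac over 27.5 to 32.7% of the window. Six6 had the most distant matches, among them the forebrain regulator Fezf2 (23.9) and En2 (33.0, median 149), both without H3K27me3 in either list. No 2 members were as close to each other as any was to its matches, the smallest distance being 66.5 between Six2 and Six5.

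The partners and companions of the 5 genes were taken from lists. Among 6 Eya and Dach genes, which encode the cofactors of this family, 4 had SUZ12 in each of the 3 clones, led in WT by Dach1 (65.1-fold), Eya4 (49.5-fold) and Eya2 (36.4-fold), while Eya3 and Dach2 had none. Eya3 had no H3K27me3 in either list and had H3K27ac over 13.4% of its window. Dach2 had H3K27me3 over 8.73% of its window in the original and 22.3% in the rescue list. Of 8 eye and forebrain regulators, companions of Six3 and Six6, 6 had SUZ12 in each clone, with Lhx2 at 106-fold and Pax6 at 85.7-fold in WT. Hesx1 and Sox2 had none. H3K27me3 covered 71.3% of the Hesx1 window in the original and 88.8% in the rescue list. H3K27ac covered 96.7% of the window of Sox2, a pluripotency factor.

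Of 7 kidney progenitor regulators, companions of Six2, 5 had SUZ12 in WT and 6 in each mutant clone. They were led in WT by Wt1 (105-fold), Gdnf (103-fold) and Osr1 (90.8-fold). Meox1 had no peak in any clone, and Sall1 had peaks in clone 439 (4.64-fold) and clone 442 (7.95-fold) but not in WT. Sall1 had H3K4me3 over 83.4% and H3K27ac over 63.1% of its window, and Six4 had them over 31.9% and 32.9% (original lists). These marks lay at 78.1% and 66.1% of all genes, so having them sets neither gene apart. Of 6 skeletal muscle regulators, companions of Six4, 3 had SUZ12 in WT and 4 in each mutant clone, with Pax3 at 89.8-fold, Myod1 at 31.4-fold and Mef2c at 22.1-fold in WT. Myf5 and Myog had none in any clone. H3K27me3 covered 28.9% (original) and 41.0% (rescue) of the Myog window, and 91.4% of that of Myf5 in the original list alone. Pax7 had none in WT, 93.0-fold in clone 439 and 44.8-fold in clone 442. Its window carried WT H3K27me3 over 74.9% (original) and 60.1% (rescue). A WT SUZ12 peak at Pax7 may be missing from the list used here, so this is not read as a gain. The shares with WT SUZ12 ran from 50% to 75% across these 4 lists, beside 22.5% of all genes, and nothing particular to a list was tested. An overlap of 1 bp counted however long the gene, and cover differed. Median WT SUZ12 window cover was 1.12% for Eya and Dach genes, 1.60% for muscle, 25.7% for kidney and 63.3% for eye and forebrain regulators. WT SUZ12 covered the start site at 2 of 4, 1 of 4, 3 of 4 and 3 of 5 genes in this order. It did so at 16.4% of all genes with a listed start site.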

How the data were processed

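Peak lists of mouse ESCs (mm10) were analysed, and a list as used here may not hold every peak of the deposited file, so a gene with none is only without one in the lists used here. MACS2 2.1.0, Picard 2.20.7, BWA 0.7.15 and cutadapt 2.5 are listed in the submitters' processing notes. Replicates were pooled or combined by the authors, who kept SUZ12 peaks by an irreproducible discovery rate filter. For SUZ12, H3K4me3 and H3K27ac the authors deposited a fold enrichment (a ratio) for each peak, and for SUZ12 the deposited −log10 q was used as an alternative. For H3K27me3 and H3K9me3 regions the last deposited column, a score of unknown scale, served only for ranks inside the same list. The lists hold no read counts, so depth was unknown. Starts of narrow peaks were moved to count from 1.

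Genes came from RefSeq (GRCm38.p6), without the mitochondrial ones, and start sites and promoters from its promoter table, which held 17492 of 21887 genes. Overlap, cover and rank were computed with numpy 2.4.6 and pandas 2.3.3, and the overlap code was tested on simulated peaks. A gene's window was its body plus 2500 bp on both sides and an overlap of 1 bp counted. Named genes were the 5 members, the nearest genes on both sides, up to 3 genes of each list by WT SUZ12 fold enrichment with those lacking it, and 3 genes of most similar cover per member. Some genes that this rule names are not reported here. The members, gene lists and rule were chosen with earlier results of these data known. Alternatives were other flanks, the stronger 50% of each list, an overlap of 50%, equal numbers of SUZ12 peaks, the rescue lists, and q in place of fold enrichment. The other samples of the series were not analysed here.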

Additional observations from a re-analysis of the deposited data

How the results depend on the processing

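Of 53 recomputed counts of members, 51 stayed within 1.5 times the main value. This limit was wide for counts of at most 5, as falls from 5 to 4, from 4 to 3 and from 3 to 2 stayed within it. The count of members with H3K9me3 in the rescue list, 2, became 1 with the gene body alone and 0 with the stronger 50% of the list. In that stronger 50%, the SUZ12 peaks of both mutant clones at Six4, its H3K27me3 region of the original list and the H3K27ac peaks of Six3 were also no longer counted. With the gene body alone Six4 lost the same H3K27me3 region, and under either alternative, or with the rescue lists, members with both H3K4me3 and H3K27me3 numbered 3 in place of 4. With the −log10 q of the peak in place of fold enrichment, Six2 ranked 42 in WT, 112 in clone 439 and 124 in clone 442, and Six3 ranked 69, 132 and 112, so the rank of Six3 no longer improved in clone 442. The shares of a window covered depended more on the flanks than the counts did. WT SUZ12 at Six6 covered 84.0% of the main window and 56.7% with flanks of 5000 bp. With the gene body alone, WT SUZ12 at Six5 went from 34.3% to 65.5% and H3K27ac at Six5 from 11.8% to 2.02%. H3K27me3 stayed at 100% at Six2 and Six3 under both flanks. No paired analysis was possible because each list combined its replicates. Original and rescue lists differ in experiment and in number of replicates, which cannot be told apart. Depth was unknown, so the reach of each list could not be set.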

Other observations

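On 1 side each of Six3, Six2, Six6 and Six4, the nearest gene carried weak or no SUZ12. Camkmt, 155 kb from Six3, had WT SUZ12 over 0.342% of its window (8.34-fold) and H3K27me3 over 11.7% in the original and 26.6% in the rescue list, while Srbd1, 296 kb from Six2, had neither mark in any list. Neither mark was listed at 4930447C04Rik, 21.9 kb from Six6, or at Trmt5, 154 kb from Six4. Dmpk ends 723 bp before Six5, and the Six5 SUZ12 peak of each clone reached into its window. Fbxo46, on the other side of Six5, had no WT SUZ12 peak and weak ones in clones 439 (6.29-fold) and 442 (9.68-fold). Its window also held H3K4me3 of 111-fold in the original list, and H3K27me3 over 3.47% in the original and 8.55% in the rescue list. The strongest original H3K27me3 region there was the one that also covered Six5, and the strongest rescue one was separate from that of Six5.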
